A study of Homo sapiens with 20 samples.

Results

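The replication-dependent histone genes were read out in cells of SW1990, a long-established line from a human pancreatic tumour, under 4 kinds of traditional Chinese medicine. They were taken as every row of the count table whose older symbol starts with HIST1 to HIST4 followed by H1, H2A, H2B, H3 or H4, leaving out symbols that contain PS. The table writes these genes under current symbols such as H2BC8 for HIST1H2BG, so that no row matched the pattern as written, and the older symbols came from gene identifiers and synonyms. The pattern found 76 of the 60656 rows, namely 6 linker histone H1, 17 H2A, 23 H2B, 15 H3 and 15 H4 genes. Of these, 70 are annotated as protein-coding and 6 as pseudogenes (H2BP1, H2BP2, H2BC19P, H2BC20P, H3P4 and H2BU2P). In hg38, 55 lie on chromosome 6, 20 on chromosome 1 and 1, H4-16, on chromosome 12. The filter on low counts kept 67 of the 76.

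Cells that copy their DNA have to wrap the new copy in nucleosomes, which are built from the core histones H2A, H2B, H3 and H4 and sealed by the linker histone H1. The genes studied here supply those proteins in S phase from many near-identical copies without introns, which sit together in clusters and are switched on by cyclin E and CDK2 through the coactivator NPAT. Their mRNAs end in a stem-loop in place of a poly(A) tail. The stem-loop binding protein SLBP and the U7 small nuclear RNA direct the cut behind that stem-loop, and the mRNAs are broken down when replication ends. Libraries made by removal of ribosomal RNA hold such mRNAs, while selection for poly(A) tails would lose most of them.

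The 20 libraries fall into 4 treatments of 5, which the labels describe by principle: clearing heat and dampness (heat-clearing), strengthening the spleen (spleen-strengthening), nourishing yin (yin-nourishing) and activating the blood (blood-activating). All carry the same cell line, and each treatment is told apart by its principle only. The labels give no untreated group, no herbs, no dose and no duration, and the series title places the work in a mouse model without saying whether a library came from a separate animal, so that every p-value below measures only the spread between these samples. In bulk RNA of this kind, fewer cells in S phase and less histone RNA per cell cannot be told apart.

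The stem-loop is shown first because it marks these mRNAs. Annotated transcripts were searched for a fixed pattern of 16 bases with a choice of letters at some positions. The length was thus set beforehand, and a stem-loop with other letters would be missed. The pattern was found in an annotated transcript of 31 of the 76 genes, in 4 forms. The form in H2BC8 is shared by 18 genes, that of H2BC4 by 5, that of H2AC11 by 3, and that of H4C2 by 5, all of them H4 genes. In the other members the letters are not in the annotated transcripts that were searched, many of which stop short of the place where the stem-loop would lie. Longer ones, such as that of H4C9 with 1294 bases, lacked the pattern as well. Capitals mark the stem-loop, in transcripts of GENCODE release 29, 5′ to 3′. In hg38 the stretches lie at chr6:26216213-26216238 for H2BC8, chr6:26123467-26123492 for H2BC4 and chr6:26026896-26026921 for H4C2 on the minus strand, and at chr6:27133510-27133535 for H2AC11 and chr1:149853100-149853125 for H3C15 on the plus strand.
H2BC8: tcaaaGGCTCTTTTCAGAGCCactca
H2BC4: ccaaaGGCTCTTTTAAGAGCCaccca
H2AC11: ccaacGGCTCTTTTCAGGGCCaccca
H3C15: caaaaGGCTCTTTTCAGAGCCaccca
H4C2: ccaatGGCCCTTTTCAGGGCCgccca
H3C15 of the cluster on chromosome 1 has the same 16 bases as H2BC8 of the cluster on chromosome 6. In 11 of the 31 genes the annotation runs on for over 1000 bases behind the stem-loop, among them H2BC8 with 1059 and H3C15 with 1154 bases. Counts of these genes can hold reads from such longer transcripts.

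Together the 76 genes took 1305 to 3015 CPM of a library (a counts-per-million scale, set by the trimmed mean of M-values, TMM). Their summed level was 2823, 2624, 1387, 1492 and 1862 CPM in the 5 heat-clearing libraries, 1379.7, 1712, 1545, 1888 and 1662 in the spleen-strengthening, 1719, 1419.6, 1953, 1505 and 1305 in the yin-nourishing and 3015, 1615, 1574, 1817 and 2648 in the blood-activating libraries. Heat-clearing libraries 01 and 02 and blood-activating libraries 01 and 09 stood above all the others, and the remaining 16 libraries lay between 1305 and 1953 CPM, with treatments that overlapped. The group means were 2038 ± 654 in heat-clearing, 1638 ± 189.7 in spleen-strengthening, 1580.3 ± 257 in yin-nourishing and 2134 ± 656 in blood-activating libraries (SD, n = 5 each). H2B genes gave the most and H4 genes the least in all 4 treatments. The H2B sum averaged 650.0 ± 193 CPM in heat-clearing, 529.8 ± 47.1 in spleen-strengthening, 499 ± 49.6 in yin-nourishing and 647 ± 192 in blood-activating libraries, and the H4 sum 222 ± 87.8 in heat-clearing, 158 ± 20.7 in spleen-strengthening, 164 ± 21.2 in yin-nourishing and 221 ± 62.3 in blood-activating libraries (SD, n = 5 each). The order of H1, H2A and H3 between them was not the same in every treatment: the H3 mean was above the H2A mean in heat-clearing (402 and 357 CPM) and blood-activating libraries (446 and 327 CPM), and below it in spleen-strengthening (259 and 338 CPM) and yin-nourishing libraries (248 and 343 CPM). The large cluster on chromosome 6 (HIST1, 55 genes) held 1012 to 2233 CPM, the cluster HIST2 on chromosome 1 (16 genes) 277 to 775 CPM, and the 4 HIST3 genes 2.29 to 7.502 CPM. Genes were assigned to clusters by their older symbol. The pseudogenes H2BP1 (chr1:121108210-121117257), H3P4 (chr1:121118195-121118610) and H2BP2 (chr1:143875171-143904650) are counted with HIST2 but lie apart from its other genes.

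**Figure D1:**
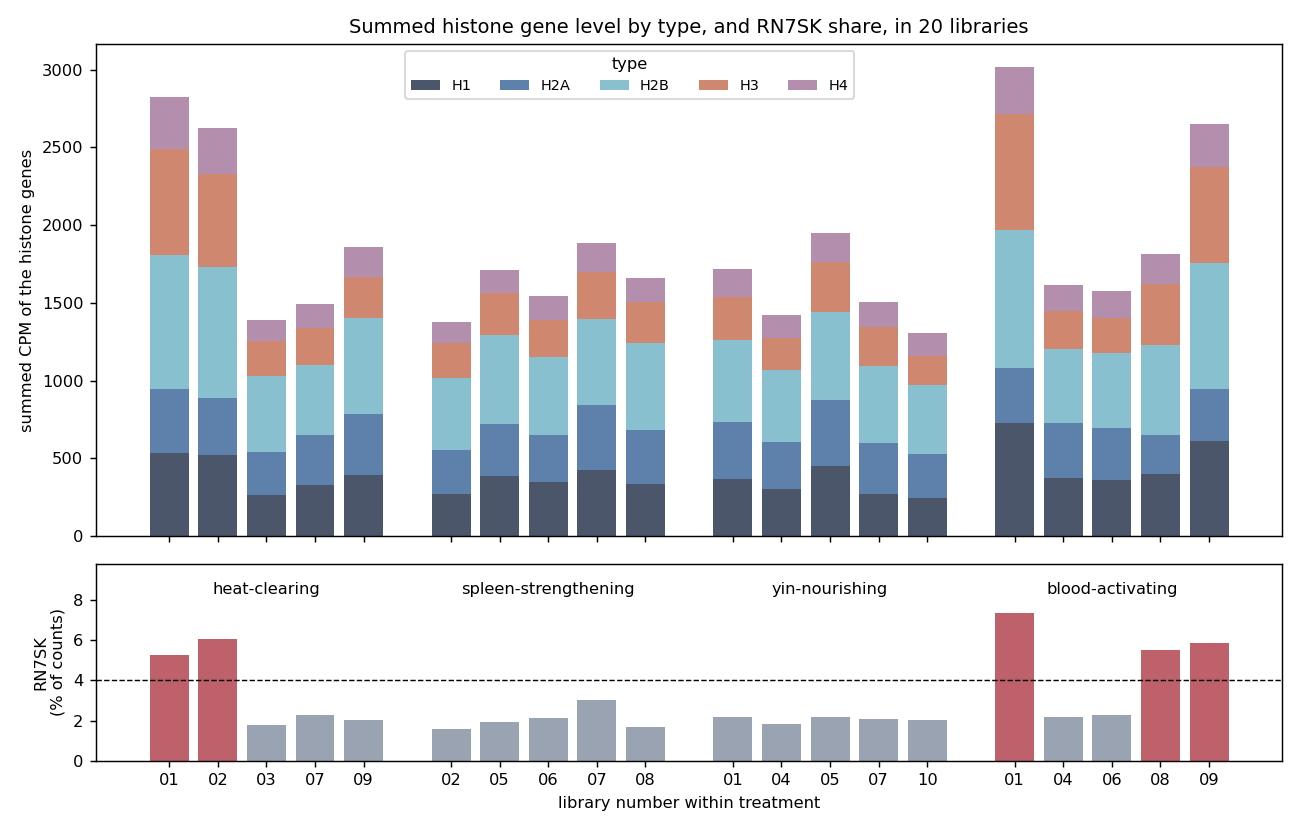
The upper bars give the summed CPM of the 76 histone genes in each of the 20 libraries, stacked by histone type, and the lower bars give the share of RN7SK in the counts in percent, with a dashed line at 4%. The 5 libraries over that line include the 4 with the highest histone sums, and their summed H3 level is 394 to 747 CPM, against 189 to 319 CPM in the other 15. The gap in the H3 level rests on H3C14 and H3C15, whose transcripts have the same sequence.

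Library totals ran from 81685860 to 134963074 counts. The RN7SK share of a library was 5.25 to 7.38% in 5 of the 20, namely heat-clearing 01 and 02 and blood-activating 01, 08 and 09, and 1.57 to 3.02% in the remaining 15. RN7SK is the 7SK small nuclear RNA, which is made by RNA polymerase III and has no poly(A) tail. The comparisons of treatments are therefore given with and without those 5 libraries. All 10 markers of pancreatic cancer epithelium, such as KRT8 and CDH1, were measured, with a sum of 3024 to 3442 CPM in the 5 libraries and 2226 to 3020.5 CPM in the other 15. The leukocyte list summed to 53.1 to 86.9 CPM and 51.3 to 68.3 CPM, with PTPRC, CD3E and CD14 below 1 CPM on average. Acinar markers varied widely, with a sum of 3.04 to 60.8 CPM in the 5 libraries and 0.968 to 1034 CPM in the others, while the 8 fibroblast genes summed to 31.9 to 74.8 and 27.4 to 71.9 CPM and the 5 endothelial genes to 7.84 to 19.8 and 10.2 to 24.1 CPM. The part of these cells in the histone values was not tested.

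Across the 4 treatments no histone gene passed edgeR's test of any difference. The lowest p-values belonged to the H2B gene H2BC8, to the H3.2 genes H3C14 and H3C15 and to the H4 genes H4-16 and H4C13. With edgeR's quasi-likelihood test, 0 of the 67 tested histone genes passed an adjusted p of 0.05, as did 0.0% of all 24790 genes tested. At an unadjusted p under 0.05 stood 29 of the 67, against 15.4% of all genes. DESeq2 called 12 of the 67 beside 4.97% of all genes, and limma voom with sample quality weights called 8 beside 8.77%. The 5 members with the smallest p were H2BC8, H3C15, H3C14, H4-16 and H4C13, in that order with an edgeR adjusted p of 0.172, 0.172, 0.172, 0.181 and 0.182. Without the 5 libraries high in RN7SK, 0 of 68 tested members passed, beside 0.00353% of all 28334 genes tested, and 4, H2BC7, H2BC8, H2BC13 and H3C3, had an unadjusted p under 0.05, beside 4.46%. H2BC8 and H4-16 were called by both DESeq2 and limma voom.

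Linker histone H1 binds the DNA that enters and leaves the nucleosome. H1-5 (chr6:27866849-27867529) and H1-2 (chr6:26055787-26056428) were the H1 genes with the highest level per kb of exon, at 313 and 177 CPM per kb over all libraries. H1-2 had 191, 191, 75.4, 85.01 and 107 CPM in the 5 heat-clearing libraries, 85.8, 112, 86.8, 113 and 89.4 in the spleen-strengthening, 98.1, 86.9, 105, 74.6 and 74.5 in the yin-nourishing and 206, 84.8, 96.7, 141 and 172 in the blood-activating libraries. Its values in heat-clearing 01 and 02 and in blood-activating 01, 08 and 09 were above those of all 15 other libraries, which did not separate by treatment. H1-5 averaged 208 ± 47.1 CPM in heat-clearing, 195 ± 32.9 in spleen-strengthening, 176 ± 50.6 in yin-nourishing and 274 ± 109 in blood-activating libraries (SD, n = 5 each), and these groups overlapped. H1-3 and H1-4 ranged from 16.9 to 52.3 CPM and from 18.5 to 42.8 CPM. H1-6, which is known from testis, stayed at or below 0.544 CPM.

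Among the H2A genes, which encode the partner of H2B in the nucleosome, H2AC13 (chr6:27808199-27808701) and H2AC14 (chr6:27814354-27814740) had the highest level per kb, 80.2 and 78.7 CPM per kb. H2AC13 holds 83.7% of the 50-base stretches of the H2AC14 transcript, so the split of reads between them is uncertain. H2AC14 had 17.3, 14.03, 26.1, 37.2 and 44.3 CPM in the 5 heat-clearing libraries, 24.4, 43.2, 30.4, 45.9 and 37.7 in the spleen-strengthening, 39.5, 35.4, 48.9, 28.2 and 25.2 in the yin-nourishing and 13.9, 38.1, 40.4, 6.98 and 12.03 in the blood-activating libraries. The 5 libraries high in RN7SK had the 5 lowest values. H2AC13 averaged 39.99 ± 8.88 CPM in heat-clearing, 44.4 ± 7.16 in spleen-strengthening, 44.5 ± 5.995 in yin-nourishing and 32.4 ± 11.2 in blood-activating libraries (SD, n = 5 each), with overlapping groups. H2AC6, the H2A gene with the most counts, lay between 106 and 147 CPM in all 20 libraries, and its group means of 126 ± 12.9 in heat-clearing, 125 ± 10.9 in spleen-strengthening, 132 ± 11.4 in yin-nourishing and 121 ± 10.6 in blood-activating libraries came from overlapping groups (SD, n = 5 each). H2AC7 (chr6:26198851-26199243) had 3.41, 2.56, 14.4, 4.51 and 2.97 CPM in the 5 heat-clearing libraries, 6.88, 8.38, 7.095, 14.7 and 14.02 in the spleen-strengthening, 8.43, 10.03, 16.8, 10.8 and 7.47 in the yin-nourishing and 5.94, 7.13, 4.55, 0.713 and 3.67 in the blood-activating libraries. It lies inside an annotated readthrough gene of the same strand, AL031777.3, which holds 97.97% of its 50-base stretches. Its groups overlapped except between yin-nourishing and blood-activating, and heat-clearing 03 stood far above the other heat-clearing libraries.

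The H2B genes, the most numerous type, included members that were highest in the libraries high in RN7SK and members that were lowest there. H2BC12 (chr6:27146418-27146798) and H2BC4 (chr6:26114873-26123926) had the highest level per kb, 157 and 76.6 CPM per kb. By CPM, H2BC21 was the highest H2B gene, at 139 over all libraries, with 2194 bases of annotated exon. H2BC12 had 121, 115, 38.3, 45.9 and 56.7 CPM in the 5 heat-clearing libraries, 44.04, 47.4, 41.9, 48.6 and 50.9 in the spleen-strengthening, 49.8, 36.2, 51.2, 40.3 and 35.95 in the yin-nourishing and 109, 46.9, 43.9, 71.5 and 98.4 in the blood-activating libraries. Its 5 highest values belonged to the libraries high in RN7SK, while the other libraries of all treatments overlapped. Much of the H2BC12 transcript, 74.1% of its 50-base stretches, also occurs in other genes. H2BC4 averaged 78.2 ± 43.4 CPM in heat-clearing, 50.4 ± 9.64 in spleen-strengthening, 46.6 ± 8.01 in yin-nourishing and 80.3 ± 35.2 in blood-activating libraries (SD, n = 5 each). H2BC8 (chr6:26215159-26216692) had 20.9, 19.4, 58.95, 35.8 and 48.3 CPM in the 5 heat-clearing libraries, 47.6, 72.4, 71.8, 39.4 and 70.5 in the spleen-strengthening, 52.4, 54.6, 49.7, 61.1 and 59.4 in the yin-nourishing and 19.9, 36.95, 37.2, 10.96 and 16.9 in the blood-activating libraries. All 5 blood-activating libraries lay below every spleen-strengthening and yin-nourishing library, with the 3 libraries high in RN7SK lowest. No 50-base stretch of the H2BC8 transcript is shared with another annotated gene. H2BC7 (chr6:26199520-26200715) had 16.96, 24.1, 17.5, 16.9 and 17.9 CPM in the spleen-strengthening libraries, all above the 13.95, 16.7, 16.7, 11.3 and 14.1 CPM of the yin-nourishing libraries. H2BC19P (chr1:149842875-149846486), a pseudogene that overlaps H2BC20P on the other strand, averaged 14.1 ± 3.22 CPM in heat-clearing, 16.5 ± 3.42 in spleen-strengthening, 13.5 ± 2.195 in yin-nourishing and 13.7 ± 4.04 in blood-activating libraries (SD, n = 5 each). H2BC10 (chr6:26272976-26273356) was at 0 in all heat-clearing libraries, with 0.0281, 0, 0, 0 and 0 CPM in the spleen-strengthening, 0, 0, 0, 0.113 and 0.315 in the yin-nourishing and 0.192, 0.145, 0.118, 0.178 and 0 in the blood-activating libraries. These are few counts, and no fold is given against values at 0.

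Most H3 genes encode H3.1, from the cluster on chromosome 6, or H3.2, from H3C13, H3C14 and H3C15 on chromosome 1. H3C2 (chr6:26031650-26032060) and H3C1 (chr6:26020490-26020900) had the highest level per kb, 177 and 137 CPM per kb. By CPM, H3C10, with 1237 bases of annotated exon, stood between them, at 64.8 over all libraries. H3C2 averaged 84.96 ± 44.6 CPM in heat-clearing, 57.1 ± 9.27 in spleen-strengthening, 55.5 ± 12.8 in yin-nourishing and 93.8 ± 46.7 in blood-activating libraries, and H3C1 53.8 ± 6.02 in heat-clearing, 60.1 ± 7.92 in spleen-strengthening, 55.2 ± 10.1 in yin-nourishing and 56.4 ± 16.6 in blood-activating libraries (SD, n = 5 each). H3C15 (chr1:149852619-149854274) had 108, 91.3, 10.2, 8.03 and 7.84 CPM in the 5 heat-clearing libraries, 10.03, 11.03, 6.56, 8.595 and 7.33 in the spleen-strengthening, 9.18, 5.45, 9.62, 9.26 and 9.304 in the yin-nourishing and 126, 9.42, 9.04, 64.3 and 103 in the blood-activating libraries. The 5 libraries high in RN7SK had 64.3 CPM or more, and no other library exceeded 11.03 CPM. H3C14 (chr1:149839538-149841193) has the same transcript sequence, so reads cannot be placed at either locus with certainty and its values followed those of H3C15. H3C14 and H3C15 also overlap H4C14 and H4C15 on the opposite strand. H3C6 (chr6:26224199-26227473) had 9.11, 9.66, 8.79, 9.41 and 11.6 CPM in the 5 heat-clearing libraries, 13.4, 8.09, 12.03, 11.9 and 9.51 in the spleen-strengthening, 10.7, 9.29, 11.9, 11.9 and 9.94 in the yin-nourishing and 6.89, 9.08, 7.15, 7.83 and 6.96 in the blood-activating libraries. All 5 blood-activating values were below the 5 yin-nourishing values, and they overlapped with the other treatments. H3C3 (chr6:26045411-26045821) was at 0 in 8 of the 10 heat-clearing and spleen-strengthening libraries with 0, 0, 0, 0.858 and 0.874 CPM in the yin-nourishing and 0.309, 0.291, 0.829, 0.241 and 0 CPM in the blood-activating libraries.

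Most H4 genes encode the same protein, and the levels below are of RNA counted at each locus. H4C14 holds 95.1% of the 50-base stretches of the H4C15 transcript, so the split of reads between them is uncertain. H4C4 (chr6:26188765-26189076) and H4C2 (chr6:26026815-26027252) had the highest level per kb, 68.7 and 45.9 CPM per kb. That order depends on the annotated exon length, which is 312 bases for H4C4 and 1929, 1876 and 2163 for H4C15, H4C14 and H4C8. By CPM over all libraries those 3 were higher, at 31.3, 30.8 and 22.2, against 21.4 for H4C4. H4C4 averaged 23.3 ± 14.8 CPM in heat-clearing, 14.9 ± 2.65 in spleen-strengthening, 14.99 ± 2.64 in yin-nourishing and 32.6 ± 18.1 in blood-activating libraries, and H4C2 24.7 ± 15.1 in heat-clearing, 16.3 ± 1.94 in spleen-strengthening, 16.2 ± 2.303 in yin-nourishing and 23.2 ± 7.93 in blood-activating libraries (SD, n = 5 each). H4C13 (chr6:27873199-27873510) had 6.96, 5.14, 2.02, 2.42 and 2.84 CPM in the 5 heat-clearing libraries, 1.703, 0.448, 0.528, 1.79 and 0.690 in the spleen-strengthening, 2.09, 1.69, 2.74, 0.418 and 1.14 in the yin-nourishing and 2.98, 1.13, 1.53, 3.44 and 4.78 in the blood-activating libraries. All 5 heat-clearing values were above the 5 spleen-strengthening values. H4-16 (chr12:14767999-14771131), the only member on chromosome 12, had 3.101, 4.06, 1.62, 1.66 and 2.996 CPM in the 5 heat-clearing libraries, 2.05, 0.604, 0.319, 3.29 and 1.15 in the spleen-strengthening, 0.741, 0.428, 0.628, 1.29 and 0.210 in the yin-nourishing and 3.45, 0.990, 2.21, 2.78 and 2.65 in the blood-activating libraries. Its 5 heat-clearing values were above the 5 yin-nourishing values and overlapped with those of the other treatments. H4C5 (chr6:26204552-26206038) averaged 7.18 ± 2.14 CPM in heat-clearing, 4.43 ± 1.64 in spleen-strengthening, 4.83 ± 0.830 in yin-nourishing and 5.15 ± 0.859 in blood-activating libraries (SD, n = 5 each), and these groups overlapped.

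**Figure D2:**
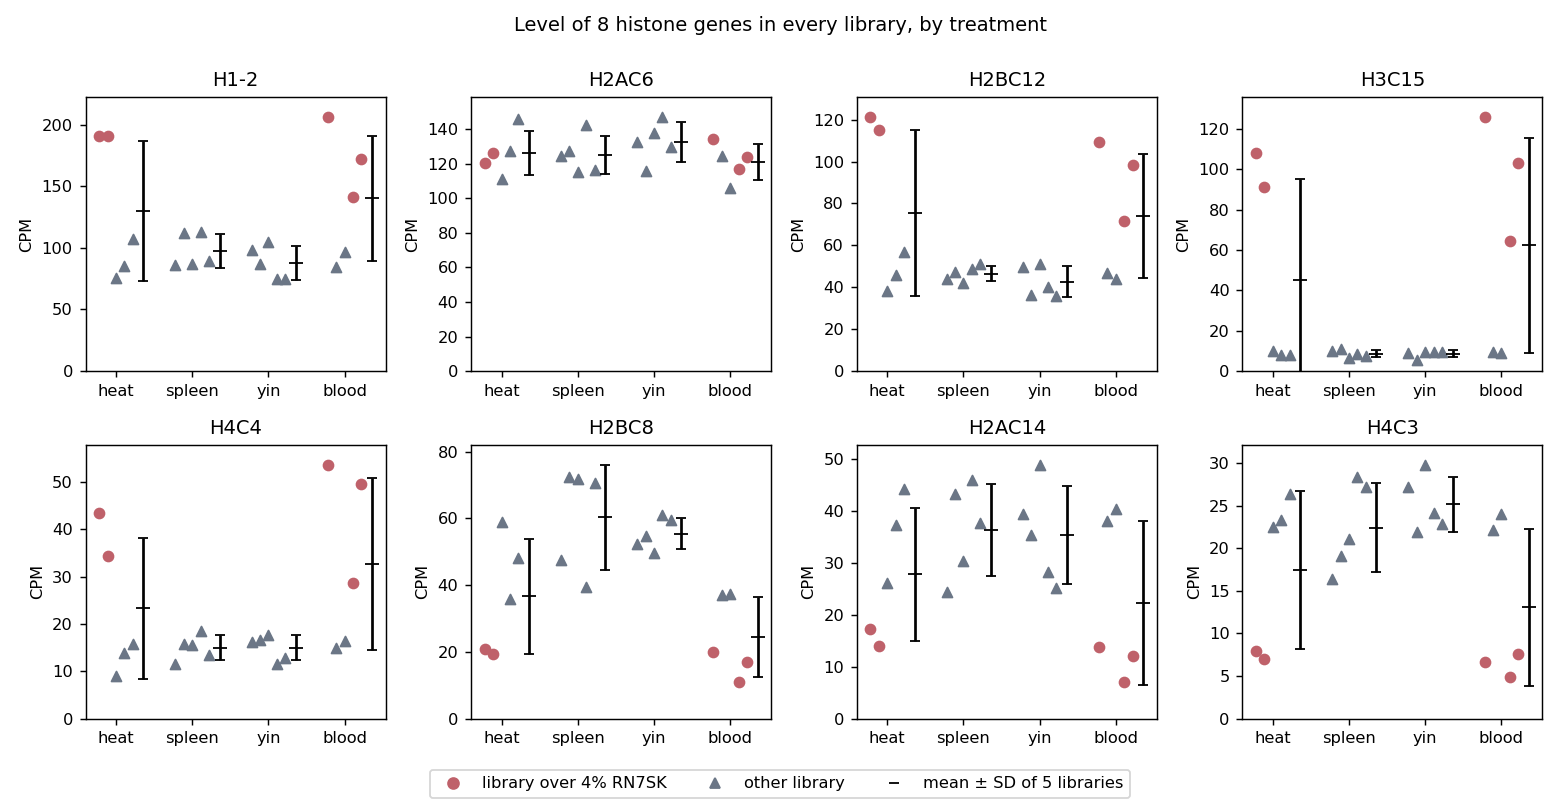
Points give the CPM of 8 histone genes in every library (y axis from 0) by treatment, circles for the 5 libraries over 4% RN7SK and triangles for the other 15, with mean ± SD of the 5 libraries beside them (bars end at 0). Circles are the 5 highest points for H1-2, H2BC12, H3C15 and H4C4, the 5 lowest for H2BC8, H2AC14 and H4C3, and lie among the triangles for H2AC6.

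Each pair of treatments was then compared in the same fit, with positive log2 fold changes meaning higher in the first-named treatment. Between heat-clearing and spleen-strengthening libraries, 49 of the 67 histone genes had a fold change above 0, beside 51.8% of all genes, with the smallest p for H4C13 and the H3.2 gene H3C15. In this comparison, 0 of the 67 tested histone genes passed beside 0.00807% of all genes, and 22 stood at an unadjusted p under 0.05 beside 11.5%. The median member fold change was 0.38 on the log2 scale, against 0.02 for all genes, and 18 members were below 0, beside 48.2% of all genes. H4C13 was at 1.91 ± 0.52 (SE, adjusted p = 0.323) and H3C15 at 2.37 ± 0.83 (adjusted p = 0.326), while H2BC8 was at -0.72 ± 0.32 (adjusted p = 0.405) and H2AC7 at -0.88 ± 0.50 (adjusted p = 0.522), all from edgeR. Without the 5 libraries high in RN7SK, the member median was -0.05, H4C13 stood at 1.23 and H3C15 at -0.01. H4C13 was the 1 member whose 5 heat-clearing values all exceeded the 5 spleen-strengthening values, which 0.795% of all genes did. No member was lower without overlap, beside 0.46% of all genes. DESeq2 and limma voom also called 0 members, beside 0.117% and 0.0121% of all genes.

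Between heat-clearing and yin-nourishing libraries, 49 of the 67 histone genes had a fold change above 0, beside 54.4% of all genes, with the smallest p for H4-16. Here 0 of the 67 histone genes passed in edgeR beside 0.0% of all genes, and 26 had an unadjusted p under 0.05 beside 10.3%. The median member fold change was 0.38 on the log2 scale, against 0.05 for all genes, and 18 members were below 0, beside 45.6% of all genes. H4-16 was at 2.03 ± 0.54 (SE, edgeR adjusted p = 0.456), and without the 5 libraries at 1.67. It was the 1 member without overlap, beside 0.738% of all genes in that direction. H3C15 was at 2.398 ± 0.83 (edgeR adjusted p = 0.456) with all libraries and at 0.02 without the 5. The members with the smallest p in the other direction were H2BC10 and H3C3, whose counts in the yin-nourishing libraries all came from libraries 07 and 10. The member median without the 5 libraries was -0.01. DESeq2 and limma voom called 0 members, beside 0.117% and 0.0% of all genes.

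Heat-clearing over blood-activating compared the treatments that both hold libraries high in RN7SK. Here 0 of the 67 histone genes passed in edgeR beside 0.0% of all genes, and 3, H2BC10, H3C3 and H3C6, had an unadjusted p under 0.05 beside 1.86%. DESeq2 and limma voom called 0, beside 0.0403% and 0.0% of all genes. The median member fold change was -0.02 (all genes -0.01), with 33 members above 0 and 34 below, beside 48.5% and 51.5% of all genes. H3C6 was at 0.36 ± 0.15 and H4C5 at 0.48 ± 0.26 (SE, edgeR adjusted p = 0.9999 for both). No member was without overlap, beside 0.182% of all genes higher and 0.307% lower. Without the 5 libraries the member median was -0.06 and H3C6 stood at 0.30. Between spleen-strengthening and yin-nourishing libraries, none of them high in RN7SK, 0 of the 67 passed in edgeR beside 0.0% of all genes, and 2, H3C3 and H4-16, had an unadjusted p under 0.05 beside 4.72%. DESeq2 and limma voom called 0, beside 0.121% and 0.00403%. The median member fold change was 0.03, with 39 members above 0 and 28 below, beside 50.3% and 49.6% of all genes. H4-16 stood at 1.17 ± 0.53 (SE, edgeR adjusted p = 0.99) and H2BC19P at 0.29 ± 0.20 (adjusted p = 1). H2BC7 was the 1 member without overlap, higher in spleen-strengthening libraries, beside 0.42% of all genes.

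Between spleen-strengthening and blood-activating libraries, 49 of the 67 histone genes had a fold change below 0, beside 52.9% of all genes, H3C15 and H3C14 among them, while H2BC8 and H3C6 stood on the other side. Here 0 of the 67 histone genes passed in edgeR beside 0.0% of all genes, and 26 had an unadjusted p under 0.05 beside 20.5%. The median member fold change was -0.44, against -0.04 for all genes, and 18 members were above 0, beside 47.1% of all genes. H2BC8 was at 1.31 ± 0.33 (SE, edgeR adjusted p = 0.0857) and H3C6 at 0.54 ± 0.15 (adjusted p = 0.0933). H3C15 was at -2.84 ± 0.85 (edgeR adjusted p = 0.0977) and H3C14 at -2.798 ± 0.84 (adjusted p = 0.0977). DESeq2 called 11 members, 2 higher (H2BC8 and H3C6) and 9 lower in spleen-strengthening libraries (H3C13, H3C14, H3C15, H4C1, H4C4, H4C9, H4C11, H4C12 and H4C13), beside 7.7% of all genes, and limma voom called 22, 7 higher and 15 lower, beside 19.7%. Leaving out blood-activating library 04 brought the edgeR count to 10 of 68, beside 7.81% of all genes, and leaving out heat-clearing library 03 to 1, H2BC8, beside 1.21%. Without the 5 libraries high in RN7SK, 0 members passed beside 0.0106% of all genes, the median was -0.06, H2BC8 stood at 0.71, H3C6 at 0.45 and H3C15 at -0.08. H2BC8 was higher without overlap, beside 1.94% of all genes, and H1-6 lower without overlap at under 1 CPM, beside 2.49%.

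Between yin-nourishing and blood-activating libraries, 49 of the 67 histone genes had a fold change below 0, beside 56.4% of all genes, and again H2BC8 and H3C6 stood on the other side. Here 0 of the 67 histone genes passed in edgeR beside 0.0% of all genes, and 28 had an unadjusted p under 0.05 beside 18.2%. The median member fold change was -0.42, against -0.09 for all genes, and 18 members were above 0, beside 43.6% of all genes. H2BC8 was at 1.18 ± 0.33 and H3C6 at 0.50 ± 0.15, while H4-16 was at -1.87 ± 0.54 and H2BC7 at -0.94 ± 0.29 (SE, edgeR adjusted p = 0.141 for each). DESeq2 called 9 members, 2 higher (H2BC8 and H3C6) and 7 lower in yin-nourishing libraries (H2BC7, H3C13, H3C14, H3C15, H4C1, H4C4 and H4-16), beside 4.11% of all genes, and limma voom 27, 7 higher and 20 lower, beside 16.9%. Without blood-activating library 04, edgeR called 1 member, H2BC7, beside 1.41% of all genes. Without the 5 libraries high in RN7SK, the member median was -0.04, H2BC8 stood at 0.58, H4-16 at -1.27 and H2BC7 at 0.03. H2AC7, H2BC8 and H3C6 were higher without overlap, beside 2.26% of all genes. The pairs share libraries with each other, and the values of 1 pair are not independent of those of the next.

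**Figure D3:**
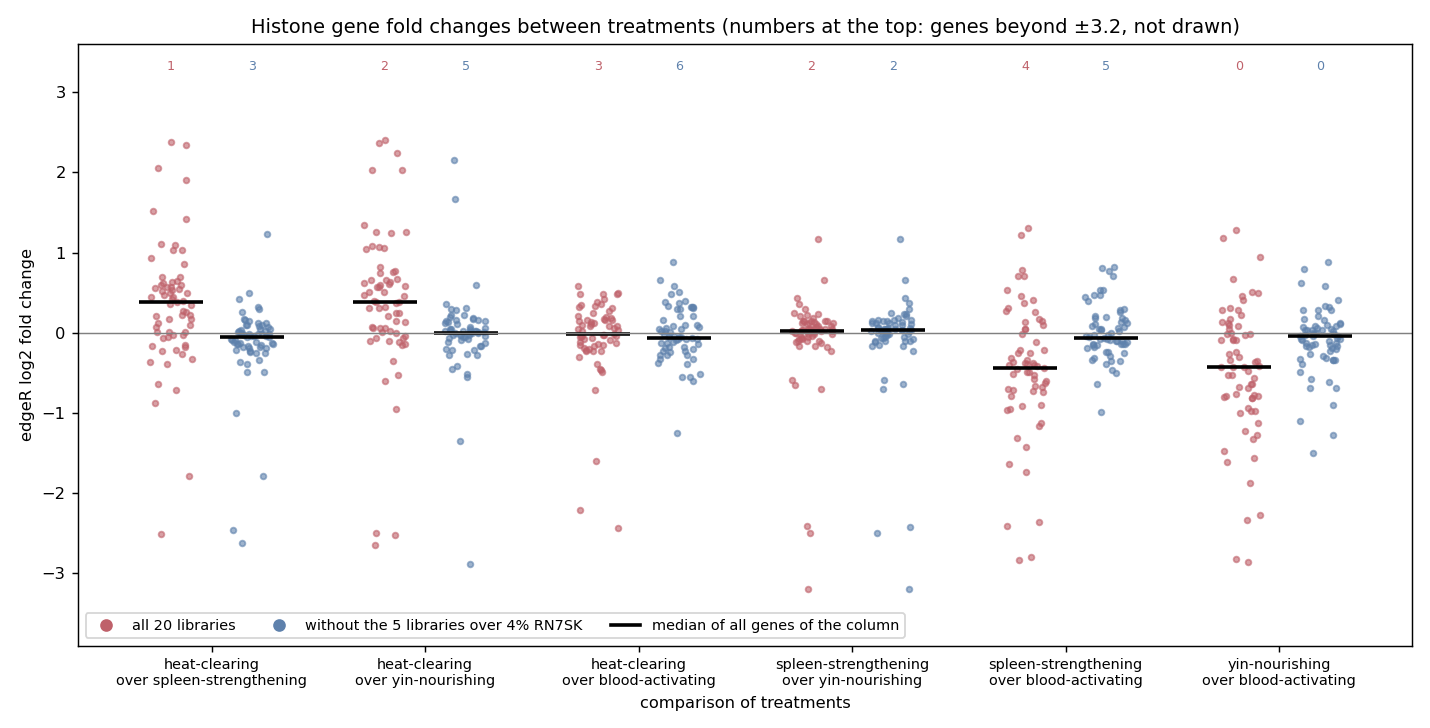
Each point is the edgeR log2 fold change of 1 tested histone gene between the treatments named below it, red with all 20 libraries and blue without the 5 libraries over 4% RN7SK, and black lines are medians. The red medians are 0.38 and 0.38 for heat-clearing over spleen-strengthening and over yin-nourishing and -0.44 and -0.42 for spleen-strengthening and yin-nourishing over blood-activating, and all blue medians lie between -0.06 and 0.03.

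Within the heat-clearing and the blood-activating treatment, many core histone genes stood apart in the libraries high in RN7SK, upward for H3C15, H4C1 and H2BC12 and downward for H4C3, H2AC14 and H2BC8. Heat-clearing holds 2 such libraries against 3 others, and blood-activating 3 against 2. Of the 67 tested histone genes, 29 (43.3%) were wholly above the other libraries in both treatments, beside 12.3% of all genes, and 4 (5.97%) were wholly below them, beside 10% of all genes. These counts describe the libraries, and the part of RN7SK in them was not tested. The median difference of log2 CPM was 0.58 for the members and 0.06 for all genes, and single members ranged from -1.78 to 3.44. With library totals in place of TMM, 31 were above and 4 below. By type, 8 of 13 H4 genes were above in both treatments, 11 of 20 H2B, 6 of 14 H3, 2 of 5 H1 genes (H1-2 and H1-5) and 2 of 15 H2A genes (H2AC18 and H2AC19, of which 1 annotated transcript contains the other). The summed H3 level was 394 to 747 CPM in the 5 libraries, against 189 to 319 CPM in the other 15, without overlap. That gap rests on H3C14 and H3C15, whose transcripts have the same sequence. They held 65.0 and 64.3 of the 394 CPM in blood-activating 08, but 10.03 and 9.62 of the 319 CPM in yin-nourishing 05. The summed H2A level was 252 to 413 CPM in the 5 libraries, against 281 to 422 CPM, and overlapped.

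Single members differed widely in size and direction. H3C15 and H3C14 stood highest, H3C15 with 64.3 to 126 CPM in the 5 libraries over 4% RN7SK, against 5.45 to 11.03 CPM in the other 15, a ratio of the means of 11.3. H4C1 (chr6:26021679-26021990) had 2.702 to 9.55 CPM in the 5 libraries over 4% RN7SK, against 0.107 to 1.65 CPM in the other 15 and a ratio of 7.4002. H4C11 and H4C12, of which the longer annotated transcript contains the shorter so that reads can be split between them in more than 1 way, had ratios of 5.095 and 4.59, and H3C12 and H3C13 both 3.59. All 5 libraries exceeded the other 15 in 18 members, beside 7.18% of all genes. The 4 members below were H4C3, H2AC14, H2BC8 and H2BC14, each with its 5 lowest values in those libraries, beside 5.39% of all genes. H4C3 (chr6:26103876-26104310) had 7.96, 6.99, 22.5, 23.3 and 26.4 CPM in the 5 heat-clearing libraries, 16.4, 19.1, 21.1, 28.3 and 27.2 in the spleen-strengthening, 27.1, 21.8, 29.8, 24.1 and 22.9 in the yin-nourishing and 6.63, 22.2, 23.998, 4.93 and 7.58 in the blood-activating libraries. Its ratio was 0.287, and those of H2BC8, H2AC14 and H2BC14 were 0.332, 0.354 and 0.430. H4C3 and H4C4, which encode the same protein from the cluster on chromosome 6, thus stood on opposite sides, and so did H2BC8 and H2BC12. H2AC6 had 117 to 134 CPM in the 5 libraries over 4% RN7SK, against 106 to 147 CPM in the other 15, and these ranges overlapped.

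Features of the transcripts were set beside these differences. The GC content of the transcript had a median of 59.1% in the 29 members above, 52.5% in the 4 below and 59.3% in the other 34, and across the 67 genes it followed the difference with Pearson's r = 0.29 and Spearman's rho = 0.21, as a description across genes that share libraries and, in part, sequence. Length and GC content were read from the shortest annotated transcript of each gene, protein-coding where there is one. Of the 14 members in which that transcript exceeded 1000 bases, 5 were above and 1 below, and of the other 53, 24 and 3. The 53 include genes with a longer annotated transcript as well, such as H2BC18, with 1479 bases behind its stem-loop. Shared sequence limits single genes, judged by 1 annotated transcript of each. Of all 76 members, 21 have over 50% of their 50-base stretches in another annotated gene, and these include 7 with every stretch shared. In 33 members no stretch is shared. H2BC8, H4C3, H4C1, H4C4 and H3C2 are among those with none, and they include members above and members below.

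**Figure D4:**
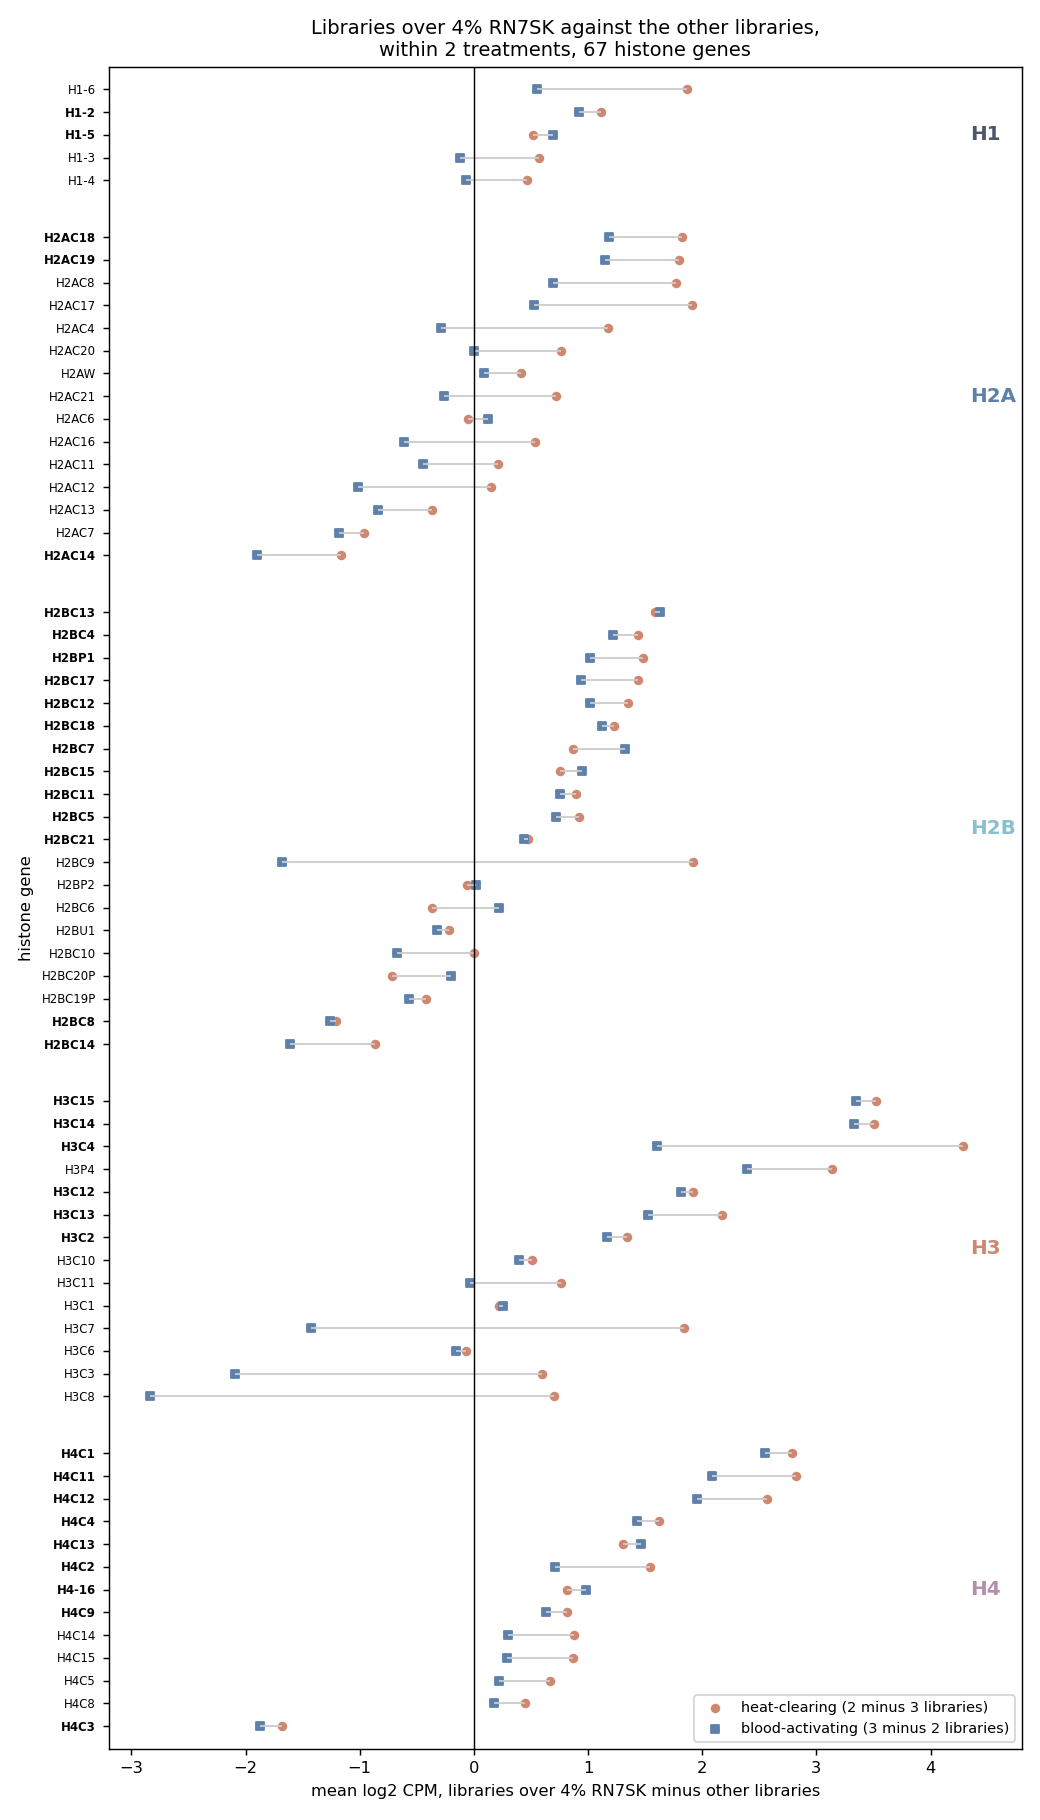
For each of the 67 tested histone genes, ordered by type and by the mean of both values, the circle (heat-clearing) and the square (blood-activating) give the mean log2 CPM of the libraries over 4% RN7SK minus that of the other libraries of the same treatment. Names in bold mark the 29 genes wholly above and the 4 wholly below in both treatments, from H3C15 at 3.44 to H4C3 at -1.78.

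Many H2A and H2B genes start back to back from a shared stretch of DNA, which lets the members of a pair be compared. Among the histone genes, 14 pairs had starts on opposite strands within 500 bases, and in 13 both genes were tested. In 8 of the 13 the 2 genes differed in sign between the libraries high in RN7SK and the rest, and in 5 they had the same sign. The sign is that of the difference averaged over heat-clearing and blood-activating. The 8 include H2AC18 with H2BC19P and H2AC19 with H2BC20P, pairs that share most of their sequence and are not separate. H2BC8 stood at -1.24 and its neighbour H2AC8, 283 bases away, at 1.23 log2 units. H2BC13 stood at 1.605 and H2AC13 at -0.60, H2BC12 at 1.18 and H2AC12 at -0.43, and H2BC4 at 1.32 and H2AC6 at 0.04. The H2A genes H2AC8, H2AC13, H2AC12 and H2AC6 were not wholly apart in both treatments. H2AC12 changed sign between them, at 0.15 in heat-clearing and -1.01 in blood-activating. H2AC14 and H2BC14 stood on the same side, at -1.53 and -1.24, as did H2AC17 and H2BC17, at 1.22 and 1.19. H2AC17 overlaps H3C12 on the same strand, and H3C12 holds 86.3% of its 50-base stretches, so its reads may be those of H3C12. H2BC17 is also counted in a pair with H3C12, which stood at 1.87, so these pairs are not separate. Across the 20 libraries, Pearson's r of log2 CPM was -0.63 for H2BC8 with H2AC8 and 0.90 for H2AC14 with H2BC14, as a description of libraries that share the split in RN7SK.

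**Figure D5:**
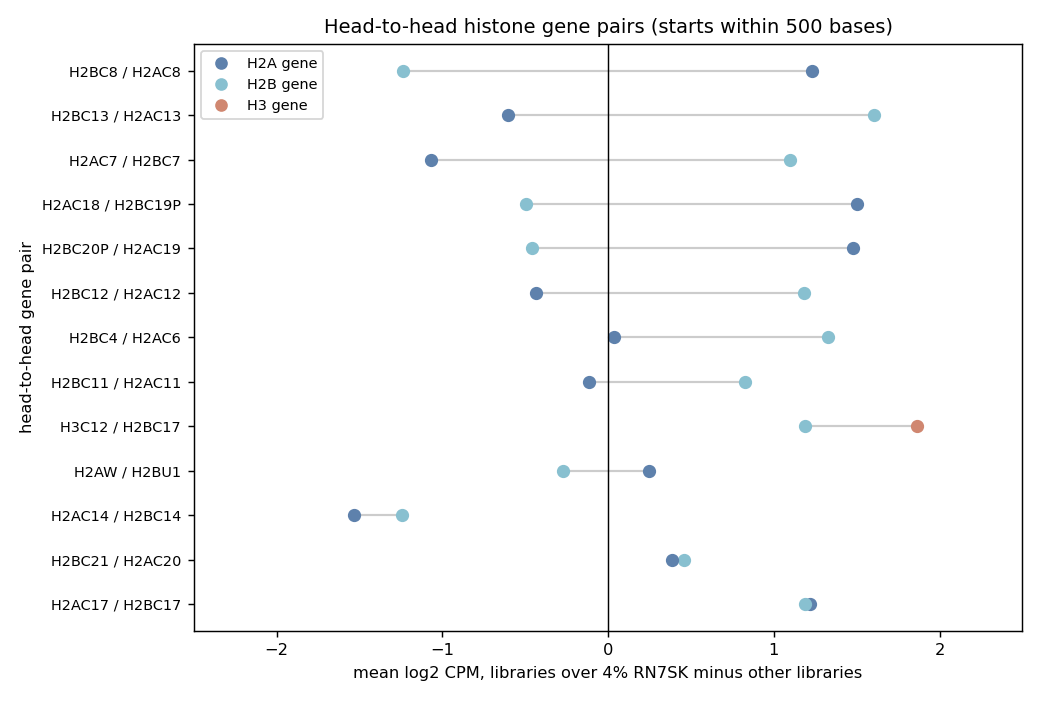
Each line joins the 2 genes of 1 of 13 head-to-head pairs, coloured by histone type, at their mean log2 CPM difference, libraries over 4% RN7SK minus other libraries, averaged over heat-clearing and blood-activating. The pair H2BC8 and H2AC8 spans -1.24 to 1.23, while both genes of H2AC14 and H2BC14 lie below 0.

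The promoters of H2BC8 and H2BC12, which stood on opposite sides, and of H3C15 and H4C4, which stood high, are shown with 3 motifs in capitals on either strand. The motifs are the octamer ATTTGCAT, which POU2F1 binds, the TATA box TATAAA and the CCAAT box CCAAT, and motifs can touch or overlap. The windows run from 250 bases before to 50 bases after the start and come from RefSeq on GRCh38.p14. They lie at chr6:26216639-26216938 (minus strand), chr6:27146809-27147108 (minus strand), chr1:149852358-149852657 (plus strand) and chr6:26189063-26189362 (minus strand).
H2BC8: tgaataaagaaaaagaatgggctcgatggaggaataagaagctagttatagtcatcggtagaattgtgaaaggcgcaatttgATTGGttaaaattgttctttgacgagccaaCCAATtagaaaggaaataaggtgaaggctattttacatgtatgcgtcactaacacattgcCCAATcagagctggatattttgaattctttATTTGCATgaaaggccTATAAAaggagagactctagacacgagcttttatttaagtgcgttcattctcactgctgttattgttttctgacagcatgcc
H2BC12: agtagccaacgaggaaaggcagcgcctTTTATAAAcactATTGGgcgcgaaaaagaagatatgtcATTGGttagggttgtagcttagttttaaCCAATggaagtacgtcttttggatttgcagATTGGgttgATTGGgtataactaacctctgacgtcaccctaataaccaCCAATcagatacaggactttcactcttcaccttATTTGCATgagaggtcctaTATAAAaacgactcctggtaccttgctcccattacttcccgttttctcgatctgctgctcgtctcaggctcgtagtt
H3C15: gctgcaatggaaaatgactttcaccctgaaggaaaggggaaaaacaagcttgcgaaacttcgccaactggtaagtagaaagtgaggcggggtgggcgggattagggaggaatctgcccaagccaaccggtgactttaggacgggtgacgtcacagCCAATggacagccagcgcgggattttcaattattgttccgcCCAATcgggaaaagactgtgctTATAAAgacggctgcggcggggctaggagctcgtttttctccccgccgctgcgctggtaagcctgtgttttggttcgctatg
H4C4: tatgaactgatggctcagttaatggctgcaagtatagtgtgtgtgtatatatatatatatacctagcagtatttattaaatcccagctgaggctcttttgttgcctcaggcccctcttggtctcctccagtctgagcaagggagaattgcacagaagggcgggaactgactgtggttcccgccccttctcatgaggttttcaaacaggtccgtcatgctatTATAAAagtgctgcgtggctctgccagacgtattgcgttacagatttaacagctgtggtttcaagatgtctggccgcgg
H2BC8 and H2BC12 both carry the octamer, TATA box and CCAAT boxes, while their differences had opposite signs. The table of promoters held 65 of the 76 members. The octamer was found in 14 of 18 H2B and 11 of 16 H2A promoters, 1 of 12 H3, 0 of 6 H1 and 0 of 13 H4 promoters, beside 1.77% of all 35116 promoters of that length. The CCAAT box was found in all H1, H2A, H2B and H3 promoters but in 3 of 13 H4 promoters, beside 34.6% of all promoters. The TATA box was found in 3 of 6 H1, 12 of 16 H2A, 12 of 18 H2B, 9 of 12 H3 and 7 of 13 H4 promoters, beside 11.5% of all.

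The genes that make and store histone mRNA and protein did not pass the 4-group test either, with 0 called by edgeR in every list. Of 27 tested genes for histone mRNA processing and decay, 9 had an unadjusted p under 0.05, beside 15.4% of all genes. Their summed level was 1037 to 1125 CPM in the 5 libraries high in RN7SK, against 1150.4 to 1307 CPM in the other 15, and 2 were wholly above and 8 wholly below in both treatments, beside 12.3% of all genes above and 10% below. SLBP averaged 35.04 ± 4.398 CPM in heat-clearing, 40.2 ± 6.83 in spleen-strengthening, 38.7 ± 5.18 in yin-nourishing and 31.04 ± 3.696 in blood-activating libraries (SD, n = 5 each), with an edgeR adjusted p of 0.305 in the 4-group test. NCBP1 and NCBP2, the subunits of the cap-binding complex, did not overlap between these libraries. NCBP1 had 59.1 to 70.2 CPM in the libraries over 4% RN7SK, against 84.7 to 126 CPM in the others. NPAT, the coactivator of histone genes, had 80.9 to 101 CPM in the libraries over 4% RN7SK, against 105 to 138 CPM in the others, without overlap. The list of 12 histone gene transcription factors, NPAT among them, summed to 920 to 1023 CPM, against 800 to 958 CPM, with ranges that overlapped. Of these, 4 were wholly above and 3 wholly below in both treatments, beside the same 12.3% and 10% of all genes. The U7 RNA gene RNU7-1 did not exceed 0.0123 CPM, too few counts for a test, and how well these libraries hold U7 RNA was not tested. Histone chaperones summed to 929 to 1077 CPM, against 1188 to 1317 CPM, with 6 of 21 wholly above and 7 wholly below in both treatments, beside the same 12.3% and 10% of all genes. TONSL, which reads newly deposited H4, had 14.4 to 18.1 CPM in the libraries over 4% RN7SK, against 5.19 to 9.6003 CPM in the others. RBBP7, a histone H4-binding protein, had 68.8 to 94.9 CPM in the libraries over 4% RN7SK, against 133 to 209 CPM in the others.

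Variant and replacement histone genes, most of whose mRNAs carry poly(A) tails, summed to 787 to 968 CPM in the libraries high in RN7SK and 789.9 to 946 CPM in the others, with ranges that overlapped. Of these, 3 of 12 were wholly above and 1 below in both treatments, beside 12.3% of all genes above and 10% below. H1-10, a linker variant, had 16.4 to 20.2 CPM in the libraries over 4% RN7SK, against 3.31 to 9.26 CPM in the others. H2AX, which marks DNA breaks when phosphorylated, had 31.7 to 51.7 CPM in the libraries over 4% RN7SK, against 10.9 to 27.04 CPM in the others. Both ranges lay apart, while H2AZ1, an H2A variant at gene starts, had 43.7 to 86.3 CPM in the libraries over 4% RN7SK, against 64.5 to 102 CPM in the others. Genes of DNA replication and S phase summed to 942 to 1384 CPM, against 1063 to 1522 CPM, with 10 of 36 wholly above and 5 below, beside the same 12.3% and 10%. CDT1, a factor that licenses replication origins, had 10.2 to 16.98 CPM in the libraries over 4% RN7SK, against 4.76 to 10.6 CPM in the others. PCNA, the sliding clamp of DNA polymerase, had 67.8 to 105 CPM in the libraries over 4% RN7SK, against 67.3 to 103 CPM in the others, which overlapped. Mitosis genes summed to 1014 to 1641 CPM, against 1439 to 2262 CPM, with 0 of 15 wholly above or below in both treatments. The part of cell cycle phase in the histone values was not tested.

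The genes most like the summed histone level over the 20 libraries, among 11028 candidates outside the histone genes, were NAA38, UBE2C, PHB, PSMC5 and CAPS, with Pearson's r of log2 CPM of 0.95, 0.95, 0.95, 0.94 and 0.94. Those most unlike it were JMJD1C, FCHO2, ATP11B, APLP2 and C5orf24, with r of -0.95, -0.95, -0.94, -0.94 and -0.94. RN7SK itself had r = 0.87. All of these describe 20 libraries that fall into 5 and 15 by RN7SK.

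The 9 remaining members had too few counts for a test: H1-1, H2AC1, H2AC15, H2BC1, H2BC3, H2BU2P, H3-4, H4C6 and H4C7. H2AC15 and H2BC1 had 0 counts in all 20 libraries, and the others between 1 and 101 counts in all. H2AC1, H2BC1 and H3-4 are known from testis. Among the tested members, H1-6, H2BC9, H2BC10, H3C3, H3C7, H3C8 and the pseudogene H3P4 stayed under 1 CPM in every library.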

How the data were processed

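Total RNA of 20 libraries was depleted of ribosomal RNA and sequenced with a directional kit, per the labels' protocols. The authors deposited 1 table of read counts per gene, made with HISAT2 and StringTie on hg38 per the submitters' processing notes. Not given in the sources used here: tool versions, the gene annotation, the strand setting, and how reads from repeats or from mouse were handled. The deposited counts were used as they are. Older gene symbols came from GENCODE 29 by gene ID (67 members) and from RefSeq synonyms (5 members, and 4 more where both names are synonyms of 1 gene).

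Rows with too few counts were dropped with edgeR's filterByExpr (minimum count 10). A single fit over all 4 treatments, scaled by TMM, was tested with edgeR 4.0.16 (quasi-likelihood, Benjamini-Hochberg over the 24790 rows tested, threshold 0.05), in R 4.3.3, with alternatives in DESeq2 1.42.0 and in voom of limma 3.58.1, weighted by sample quality. The procedure was also run on simulated counts with the same spread for every gene and no split in RN7SK, unlike these libraries. CPM use TMM-scaled totals, and log2 CPM a prior count of 2. Libraries with RN7SK over 4% of counts were set apart. Genes named are the 2 of each type highest per kb, the 5 with the smallest p in the 4-group test and the 2 with the smallest p in each direction of each pair; the other members named, and H4C1, H4C3, SLBP and PCNA, were chosen after their values were seen. The members, gene lists and the RN7SK threshold were chosen with earlier results of these data known.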

Additional observations from a re-analysis of the deposited data

Results flagged for a closer look

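In 8 of 112 sets of 5 libraries, covering the summed level of all members and of each histone type and the 22 named histone genes, 1 library lay apart from the other 4 by more than 0.71 of the whole range, and chance alone marks about 1 in 20 such sets. The summed H2A level was 252 CPM in blood-activating 08, against 335 to 355 CPM in the other 4 blood-activating libraries. H3C15 had 5.45 CPM in yin-nourishing 04, against 9.18 to 9.62 CPM in the others of that treatment, and H3C14, with the same transcript sequence, had 5.84 CPM, against 9.199 to 10.03 CPM. H2AC7 had 14.4 CPM in heat-clearing 03, against 2.56 to 4.51 CPM in the others. H2BC7 had 24.1 CPM in spleen-strengthening 05, against 16.9 to 17.9 CPM. The remaining values rest on very few counts, with the other 4 libraries of the treatment at 0: H2BC10 had 0.0281 CPM in spleen-strengthening 02, and H3C3 had 0.0264 CPM in heat-clearing 01 and 0.0336 CPM in spleen-strengthening 05.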

How the results depend on the processing

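With edgeR, the count of histone genes passing an adjusted p of 0.05 was 0 in the 4-group test and in all 6 pairs with RLE size factors, upper quartile scaling, library totals alone, no low-count filter, a strict filter (1 CPM in 5 samples), the letter in the sample title as a covariate, each pair fitted alone, without the 5 libraries over 4% RN7SK, and with a term for them. DESeq2 called 12 in the 4-group test, 11 in spleen-strengthening over blood-activating and 9 in yin-nourishing over blood-activating, and limma voom called 8, 22 and 27. Leaving out 1 library at a time gave 0 to 10 calls in spleen-strengthening over blood-activating, with 10 without blood-activating library 04 and 1 without heat-clearing library 03, and 0 to 1 in yin-nourishing over blood-activating.

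Without the 5 libraries, the median member log2 fold change was -0.047 in heat-clearing over spleen-strengthening, -0.0086 in heat-clearing over yin-nourishing, -0.061 in spleen-strengthening over blood-activating and -0.045 in yin-nourishing over blood-activating. A term for them gave 0.0068, 0.039 and 0.059 in heat-clearing over spleen-strengthening, spleen-strengthening over blood-activating and yin-nourishing over blood-activating. With the 5 libraries left out, the sign of the fold change differed from that with all libraries for 28 of the 67 members tested in both fits in heat-clearing over spleen-strengthening, 21 in heat-clearing over yin-nourishing, 27 in heat-clearing over blood-activating, 1 in spleen-strengthening over yin-nourishing, 22 in spleen-strengthening over blood-activating and 26 in yin-nourishing over blood-activating. Of the 24 combinations of a pair and 1 of the 2 members with its smallest p in each direction, 3 changed sign in some alternative: without the 5 libraries, H3C15 was at -0.0054 in heat-clearing over spleen-strengthening and H2BC7 at 0.029 in yin-nourishing over blood-activating, and with the replicate block H3C3 was at 0.19 in heat-clearing over yin-nourishing, where its counts are near 0. Of the runs of these members and of the 5 named in the 4-group test under an alternative, 29 brought the member past the threshold that it otherwise missed, most of them under DESeq2 and limma voom. Beyond the change in samples, the cause was not tested.

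No pairing of the libraries by the numbers in the sample titles was seen, which does not exclude one. Of 12 same-numbered pairs, 1 had a correlation of deviations over 0.1, in a range from -0.05 to 0.17. That pair was heat-clearing 01 with blood-activating 01, both of them libraries high in RN7SK. With the number as a replicate block, 0 members were called, and the member medians were 0.28, 0.37 and -0.05 for heat-clearing over spleen-strengthening, yin-nourishing and blood-activating, 0.06 and -0.37 for spleen-strengthening over yin-nourishing and blood-activating, and -0.40 for yin-nourishing over blood-activating. Depth limits the members under 1 CPM, which are given as levels.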
